A study of Homo sapiens with 6 samples.

Results

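The zinc finger genes of chromosome 19p12 were examined in ARPE-19 cells, an established human line derived from retinal pigment epithelium. They are a block of neighbouring genes that expanded in primates, and 33 of them were chosen by name and position. On the array, 23 had a probe set annotated to that symbol alone, among 19775 genes measured, and each was represented by its brightest such probe set over all 6 arrays. The other 10 (ZNF66, ZNF98, ZNF676, ZNF714, ZNF724, ZNF726, ZNF728, ZNF729, ZNF730 and ZNF737) had none and were not analysed here. The set was proposed with the treatment comparison known, in particular that ZNF682 was higher after treatment. All changes of these genes with treatment are therefore descriptions, and ZNF682, whose rise the choice stated, is described with no test and left out of the counts of genes that passed one.

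One group of 3 arrays came from ARPE-19 cells exposed to SRPIN803 at 10 µM for 4 h. The other group of 3 came from ARPE-19 cells that received only the solvent, 0.1% DMSO, for the same 4 h. All cells grew in medium with 10% serum and antibiotics. The compound blocks SRPK1, which phosphorylates splicing factors, as well as CK2. No label states that the 3 arrays of a group came from different cultures, so p-values measure only the spread between these arrays, which may be technical.

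Proteins of this family carry tandem C2H2 zinc fingers, which bind DNA, and most carry a KRAB domain. The KRAB domain recruits the corepressor TRIM28, which brings in the histone H3 lysine 9 methyltransferase SETDB1 and heterochromatin proteins. Many of these proteins silence transposable elements, and the 19p12 genes arose by repeated local duplication. Paralogues of such recent origin have similar transcripts, which bears on how well an array tells them apart.

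The duplication history was visible in the sequence just before the annotated starts. RefSeq promoter windows (build GRCh38.p14) were matched by symbol for 25 of the 33 genes, 19 of them among the genes measured, and the 250 bases before the start were compared. For ZNF682, which has more than 1 start in that table, the outermost was used. Over the 300 pairs of genes the median identity in a global alignment was 78.0%, with a range of 46.9% to 92.0%. ZNF682 was among the 3 most diverged, with a median identity of 65.4% to the other 24, after ZNF708 at 54.3% and ZNF675 at 62.8%. The closest pair was ZNF431 and ZNF714.

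The windows of ZNF682, of 4 of the 5 genes that passed the test described below (ZNF738 has no window here), and of ZNF430 and ZNF91, which did not pass it, are shown so that the shared layout can be seen. Each runs 5′ to 3′ toward the start. Capitals mark the CCAAT box, the letters bound by the factor NF-Y, and CTTCCGG, the core recognised by ETS-type factors.
ZNF682: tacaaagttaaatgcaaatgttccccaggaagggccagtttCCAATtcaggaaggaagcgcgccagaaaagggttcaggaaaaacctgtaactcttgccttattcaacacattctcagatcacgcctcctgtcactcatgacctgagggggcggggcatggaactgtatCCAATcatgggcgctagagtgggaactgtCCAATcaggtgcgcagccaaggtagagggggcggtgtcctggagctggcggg
ZNF431: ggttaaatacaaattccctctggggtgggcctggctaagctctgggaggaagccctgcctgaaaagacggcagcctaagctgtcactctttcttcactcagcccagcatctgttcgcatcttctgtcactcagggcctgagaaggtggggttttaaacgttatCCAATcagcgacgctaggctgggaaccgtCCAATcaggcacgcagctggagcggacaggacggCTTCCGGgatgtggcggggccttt
ZNF93: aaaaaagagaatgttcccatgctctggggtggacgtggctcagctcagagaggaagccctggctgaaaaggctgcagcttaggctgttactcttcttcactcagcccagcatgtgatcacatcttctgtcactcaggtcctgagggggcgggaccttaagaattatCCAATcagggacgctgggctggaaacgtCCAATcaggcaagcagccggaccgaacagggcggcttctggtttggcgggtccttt
ZNF85: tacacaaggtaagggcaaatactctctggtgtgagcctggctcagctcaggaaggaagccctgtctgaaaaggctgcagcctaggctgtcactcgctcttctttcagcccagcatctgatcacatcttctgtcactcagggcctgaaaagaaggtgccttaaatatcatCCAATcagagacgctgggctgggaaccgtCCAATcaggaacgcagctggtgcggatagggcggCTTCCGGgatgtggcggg
ZNF43: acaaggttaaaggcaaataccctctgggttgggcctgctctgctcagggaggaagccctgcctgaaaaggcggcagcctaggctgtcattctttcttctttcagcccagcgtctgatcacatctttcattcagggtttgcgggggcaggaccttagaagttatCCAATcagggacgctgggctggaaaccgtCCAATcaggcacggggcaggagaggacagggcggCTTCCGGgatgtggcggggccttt
ZNF430: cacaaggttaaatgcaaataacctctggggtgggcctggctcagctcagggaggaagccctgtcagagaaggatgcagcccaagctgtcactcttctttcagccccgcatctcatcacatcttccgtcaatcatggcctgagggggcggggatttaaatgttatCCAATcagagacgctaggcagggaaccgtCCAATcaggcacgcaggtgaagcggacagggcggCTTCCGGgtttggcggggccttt
ZNF91: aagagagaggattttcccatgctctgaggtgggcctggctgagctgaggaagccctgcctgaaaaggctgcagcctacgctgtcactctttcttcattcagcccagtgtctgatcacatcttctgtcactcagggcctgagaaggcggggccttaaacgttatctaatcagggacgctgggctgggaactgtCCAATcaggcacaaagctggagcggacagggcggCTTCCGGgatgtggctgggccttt
Their positions in GRCh38.p14 are chr19:20039506-20039755 (minus strand) for ZNF682, chr19:21141790-21142039 (plus) for ZNF431, chr19:19900696-19900945 (plus) for ZNF93, chr19:20923001-20923250 (plus) for ZNF85, chr19:21836183-21836432 (minus) for ZNF43, chr19:21020407-21020656 (plus) for ZNF430 and chr19:23395472-23395721 (minus) for ZNF91.

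Every one of the 25 windows held the extended CCAAT box TCCAATCA on either strand, against 1.45% of all 35116 windows in the table and 9.74% of the 493 windows of other zinc finger genes. These letters were chosen after reading the windows, and TCCAATCA contains CCAAT, so the matches overlap. The shorter CCAAT occurred at least 2 times in 19 of the 25, against 9.53% of all windows and 13.8% of those of other zinc finger genes. CTTCCGG was found in 18 of the 25, against 8.52% of all windows and 24.3% of those of other zinc finger genes. ZNF682 and ZNF93 were among the 7 without it. The E-box CACGTG was found in 0 of the 25, against 6.34% of all windows and 4.46% of those of other zinc finger genes. Among measured genes, 2 or more CCAAT boxes stood in the window of ZNF682, in 4 of 4 windows of genes that passed the test and in 8 of 14 windows of genes that did not, which describes these windows and was not tested.

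**Figure D1:**
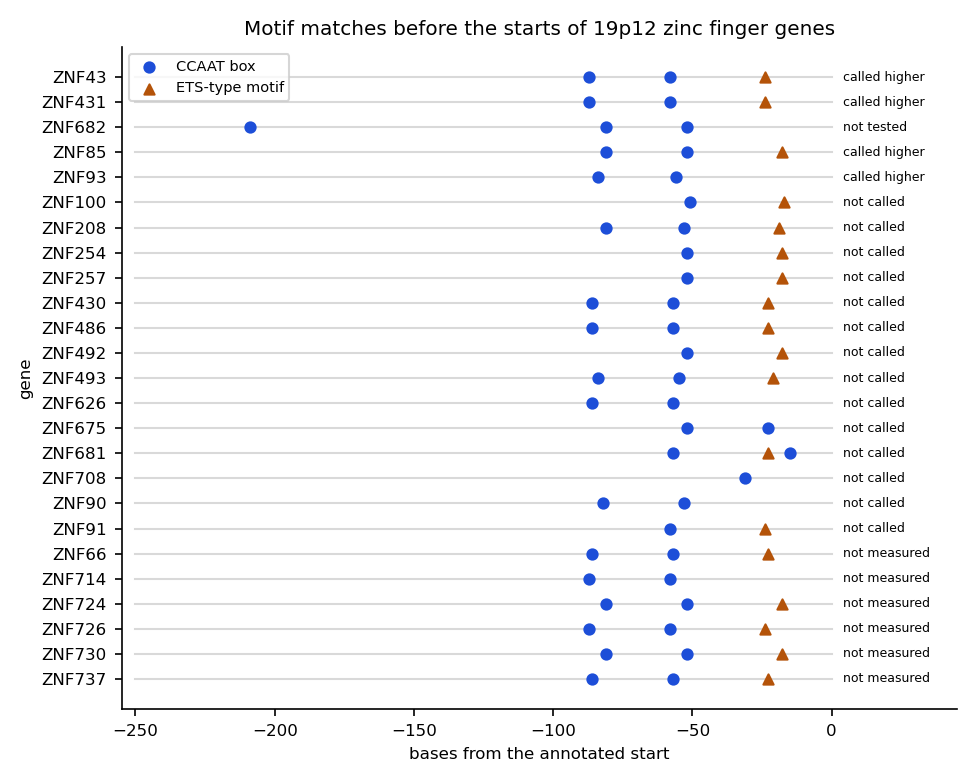
Positions of CCAAT boxes (circles) and ETS-type motifs (triangles) in the 250 bases before the annotated start of 25 genes, with distance from the start in bases on the x axis and genes in rows. CCAAT boxes stand in every window, and ZNF682 and the 4 genes called higher carry at least 2.

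The arrays matched the label of the cells in part. Of 13 measured markers of retinal pigment epithelium, 10 lay at or above the median level of all probe sets (5.26 on the log2 scale). Among the 10 were the transcription factor genes MITF and OTX2 and the keratin genes KRT8 and KRT18. Of all 19775 genes, each at its brightest probe set, 12627 lay at or above that level, so the count says little about cell identity. The visual cycle gene RPE65 was low, at 2.24 ± 0.060 after SRPIN803 and 2.42 ± 0.29 after DMSO (log2, SD, n = 3 each). LRAT and TYRP1 were low as well. CDH5 of endothelium and PTPRC of leukocytes were also low, at 2.66 and 2.90 after SRPIN803 and 2.64 and 2.73 after DMSO (log2 means). Other markers of such cells were not all low. At or above the median level were 1 of 4 measured markers of endothelium, 1 of 3 of leukocytes and 1 of 4 of photoreceptors. They were PECAM1, CD3E and ARR3, at 6.37, 5.63 and 5.42 after SRPIN803 and 6.35, 5.55 and 5.32 after DMSO. MITF was the 1 pigment epithelium marker of 13 called between the groups (7.69%), where 5.84% of all genes were. The arrays correlated at 0.996 to 0.998 within groups and 0.994 to 0.996 between groups (Pearson, across probe sets), and the lowest value of each range involved SRPIN803 replicate 2.

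After SRPIN803, 5 of the 22 measured genes other than ZNF682 rose and 0 fell in limma's test over all genes, at an adjusted p under 0.05. They were ZNF431, ZNF93, ZNF738, ZNF85 and ZNF43. Of all 19775 genes, 5.84% were called in either direction, 3.46% higher and 2.37% lower. At an unadjusted p under 0.05, 9 of the 22 were higher and 0 lower, where 11.8% of all genes were higher and 7.7% lower. Because the genes were proposed with this comparison in view, nothing about them is read from these counts. In bulk arrays a change in the RNA of each cell and a change in the mix of cells cannot be told apart.

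ZNF682 had values of 7.77, 7.86 and 7.62 on the SRPIN803 arrays and 6.52, 6.54 and 6.47 on the DMSO arrays (RMA values, log2). The groups were far apart and each was tight. Its mean was 7.75 ± 0.12 after SRPIN803 and 6.51 ± 0.038 after DMSO (SD, n = 3 each), a 2.36-fold difference. Its other probe set, which ends in _s_at and lies below the median level, read 4.89, 4.44 and 4.86 after SRPIN803 and 4.21, 3.82 and 4.13 after DMSO. That is a log2 change of 0.68 ± 0.15 (SE), with no overlap of the groups. ZNF682 is a little characterised member of the family, and no role is given for it here.

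ZNF431, whose mouse counterpart is known as a repressor of the Hedgehog receptor gene Ptch1, had values of 6.74, 6.88 and 6.98 after SRPIN803 and 6.30, 6.08 and 6.25 after DMSO. All SRPIN803 arrays lay above all DMSO arrays. It rose 1.57-fold (1.37 to 1.81), with limma's adjusted p = 0.00775. Its other probe sets, both ending in _at and above the median level, changed by log2 values of 0.51 ± 0.12 and 0.47 ± 0.13 (SE). Neither was called over all probe sets (adjusted p = 0.0876 and 0.121), though the groups did not overlap in either. ZNF431 kept its call with any 1 array left out.

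ZNF738 read 8.80, 8.69 and 8.65 after SRPIN803 and 8.13, 8.30 and 8.10 after DMSO. The groups were again separate, and it rose 1.45-fold (1.28 to 1.64, limma's adjusted p = 0.0101). Its second probe set, ending in _x_at and dimmer, read 6.09, 6.25 and 6.11 after SRPIN803 and 4.83, 5.30 and 5.01 after DMSO. The log2 change there was 1.10 ± 0.12 (SE, limma's adjusted p = 0.00765 over all probe sets), against 0.53 ± 0.083 on the brighter one in the same fit. A test of the difference between these probe sets was not made. Without DMSO replicate 3 the brighter probe set lost its call (log2 change 0.49, adjusted p = 0.0533).

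ZNF93, known as a repressor of L1 retrotransposons, had values of 7.55, 7.35 and 7.67 after SRPIN803 and 7.05, 6.95 and 6.88 after DMSO. Its arrays did not overlap between groups, and it rose 1.48-fold (1.27 to 1.72, limma's adjusted p = 0.0165). This brightest probe set ends in _s_at. The other 3 had log2 changes of 0.22, 0.29 and 0.38, and none was called over all probe sets (adjusted p = 0.516, 0.182 and 0.167). The call was lost without SRPIN803 replicate 1 (adjusted p = 0.0523), DMSO replicate 2 (0.0700) or DMSO replicate 3 (0.0752). It was also lost when probe sets ending in _s_at or _x_at were set aside, where ZNF93 stood at a log2 change of 0.38 (adjusted p = 0.113).

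ZNF85 had values of 7.60, 7.45 and 7.60 after SRPIN803 and 7.24, 6.98 and 6.98 after DMSO. It rose 1.40-fold (1.21 to 1.61, limma's adjusted p = 0.0238), and its second probe set, ending in _x_at, was at a log2 change of 0.38 ± 0.087 (SE), also without overlap. ZNF43 had values of 7.51, 7.44 and 7.53 after SRPIN803 and 7.14, 7.21 and 7.06 after DMSO. It rose 1.28-fold (1.15 to 1.42, limma's adjusted p = 0.0226) on its only probe set, which ends in _x_at. In the fit over all probe sets it was at an adjusted p of 0.0518 (limma). A further probe set names both ZNF43 and ZNF729 and belongs to neither alone. It read 7.84, 7.86 and 7.85 after SRPIN803 and 7.70, 7.60 and 7.61 after DMSO, again with the groups apart.

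With single arrays left out in turn, the calls of ZNF85 and ZNF43 were kept least often, each in 2 of 6 fits, and that of ZNF93 in 3. Over all alternatives run, ZNF93 and ZNF85 each lost the call in 4 and ZNF43 in 5. ZNF85 lost it without SRPIN803 replicate 1 or 3 or DMSO replicate 2 or 3 (adjusted p up to 0.0998). ZNF43 lost it without SRPIN803 replicate 1 or 3 or DMSO replicate 1 or 3 (adjusted p up to 0.0970), and with the replicate number as a block (adjusted p = 0.0649). Of the 5 genes, ZNF431 and ZNF738 kept their calls without SRPIN803 replicate 1, and ZNF431 alone kept it without DMSO replicate 3. DMSO replicate 3 held the lowest of the 6 values in 13 of the 23 genes (56.5%), where it did so in 16.8% of all genes and in 15.9% of the other zinc finger genes.

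**Figure D2:**
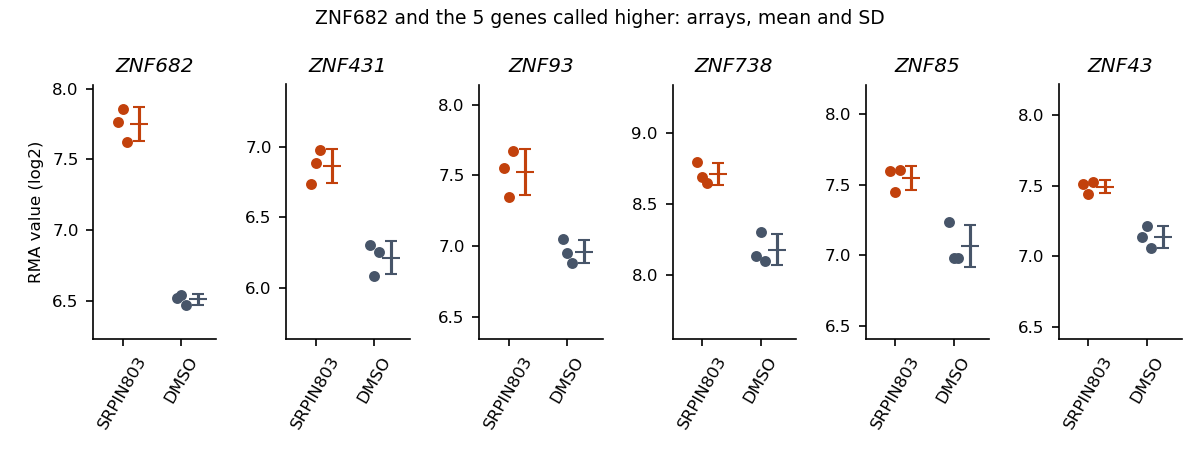
RMA values (log2) of ZNF682 and the 5 genes called higher, with 1 point for each array, SRPIN803 on the left and DMSO on the right of each panel, and bars for mean and SD (n = 3). All panels span the same log2 range, and in each gene every SRPIN803 array lies above every DMSO array.

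The other 17 genes did not pass the test. Of the 22 genes other than ZNF682, 18 had a mean above DMSO and 4 a mean below it, and the SRPIN803 arrays lay wholly above the DMSO arrays in 11 and wholly below in 0. The groups were apart in the higher direction in 15.2% of all genes and in the lower direction in 10.4%. The median log2 change was 0.15 for the 22 and 0.16 with ZNF682, and that of all genes was 0.02. The median deviation of the 23 genes from their own DMSO means was 0.21, 0.23 and 0.18 on the SRPIN803 arrays and 0.01, 0.03 and -0.08 on the DMSO arrays (log2). On the SRPIN803 arrays it was 0.02, 0.03 and 0.02 over all genes. Over the other zinc finger genes it was 0.04, 0.07 and 0.06 there. On SRPIN803 replicate 1, all 23 genes lay above their own DMSO mean, and on replicates 2 and 3 the numbers were 18 and 17. On DMSO replicates 1, 2 and 3 the numbers were 16, 13 and 7, so DMSO replicate 1 was close to SRPIN803 replicates 2 and 3 by this count. These numbers include ZNF682, and the matching shares of all genes were not computed.

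**Figure D3:**
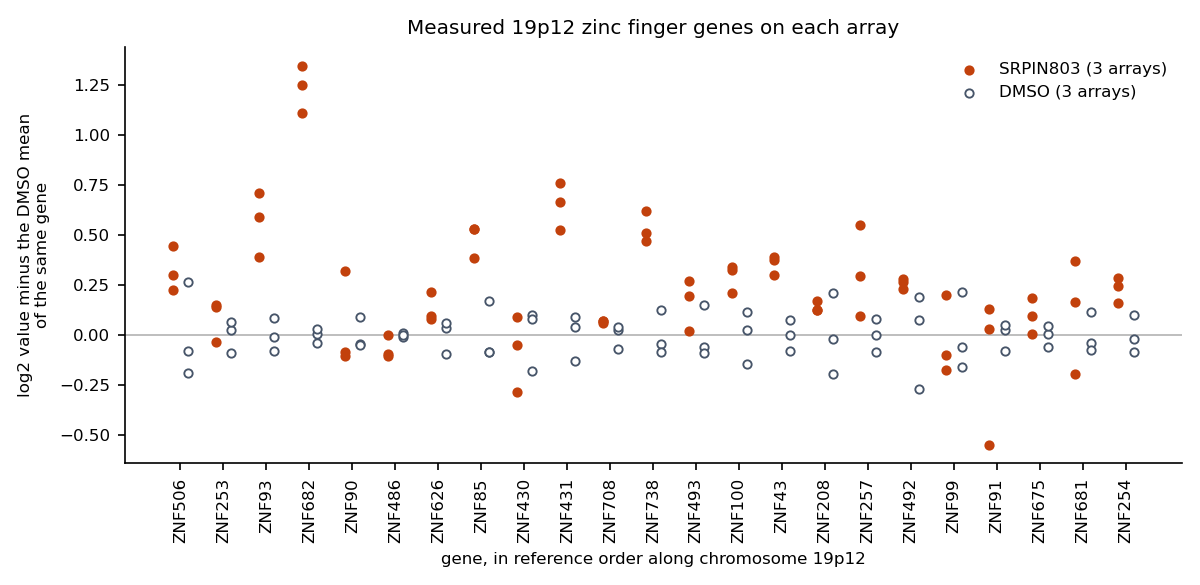
Value of each of the 23 genes on each array minus the DMSO mean of the same gene (log2), in reference order along 19p12, with SRPIN803 as filled and DMSO as open points. ZNF682 stands highest, and ZNF91 shows 1 low SRPIN803 array.

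Among the genes that did not pass, 6 had SRPIN803 arrays wholly above the DMSO arrays: ZNF254, ZNF626, ZNF708, ZNF100, ZNF257 and ZNF492. Their log2 changes ran from 0.07 for ZNF708 to 0.31 for ZNF257. ZNF100 had values of 4.46, 4.58 and 4.59 after SRPIN803 and 4.36, 4.28 and 4.11 after DMSO (adjusted p = 0.0849). ZNF257 had values of 2.84, 3.09 and 2.64 after SRPIN803 and 2.55, 2.63 and 2.46 after DMSO, near the bottom of the scale. ZNF506, the first gene of the block, had values of 6.29, 6.51 and 6.37 after SRPIN803 and 5.87, 5.98 and 6.33 after DMSO. The high DMSO replicate 3 made the groups of ZNF506 overlap, and its log2 change was 0.33 ± 0.12 (SE, limma's adjusted p = 0.191). Its other probe sets were at 0.07, 0.02 and -0.17, so its value depended on the probe set. The one at 0.07 was nearly as bright as the one used (6.17 against 6.23, mean of all 6 arrays). With the mean of all its probe sets the log2 change of ZNF506 was 0.06.

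ZNF91, known as a repressor of SVA and L1 retrotransposons, did not move past the threshold. Its values were 9.26, 8.68 and 9.36 after SRPIN803 and 9.15, 9.25 and 9.27 after DMSO. SRPIN803 replicate 2 stood below the other 5 arrays, and the log2 change was -0.13 ± 0.16 (SE, 95% confidence interval -0.51 to 0.25), or 0.081 without that array. The other 6 probe sets of ZNF91 ranged in log2 change from -0.10 to 0.22. The same array was low in a probe set of ZNF254 ending in _a_at, at 5.86 against 6.37 and 6.29 on the other SRPIN803 arrays.

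The genes also near 0 included ZNF430, with values of 7.25, 6.87 and 7.11 after SRPIN803 and 6.98, 7.26 and 7.24 after DMSO. ZNF626 had values of 7.43, 7.56 and 7.44 after SRPIN803 and 7.38, 7.40 and 7.25 after DMSO, apart by little (log2 change 0.13 ± 0.070, SE, adjusted p = 0.363). ZNF493 was at a log2 change of 0.16 ± 0.093, ZNF253 at 0.09 ± 0.076 and ZNF681 at 0.11 ± 0.14 (SE). These values are those of the brightest probe sets. Over all probe sets of a gene, the log2 changes ran from 0.01 to 0.40 for ZNF493, from 0.13 to 0.36 for ZNF626 and from -0.08 to 0.14 for ZNF430. ZNF675, also known as TIZ and described as an inhibitor of TRAF6 signalling, was at 0.10 ± 0.068. Of the 23 genes, 8 had a mean below the median level, namely ZNF90, ZNF486, ZNF100, ZNF208, ZNF257, ZNF492, ZNF99 and ZNF675. None of those 8 was called (limma; 2 higher and 0 lower at an unadjusted p under 0.05, where 11.8% and 7.7% of all genes were). RMA tends to understate differences of weak signals. The 15 genes at or above the median level had a median log2 change of 0.23, and that of the dim 8 was 0.12.

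The probe sets themselves differ in how specific they are. On this platform, names ending in _x_at mark probe sets with some probes that match other transcripts, and names ending in _s_at mark probes shared by several transcripts. The brightest probe set ended in _x_at for 11 of the 23 genes, in _s_at for 1 and in _at for 11. Signal from paralogues was not tested, since probe sequences were not used here. There were 53 probe sets that name 1 of the 23 genes alone. Of the 51 of genes other than ZNF682, 44 had a log2 change above 0 and 7 below. The groups were apart in the higher direction in 25 of the 51 and in the lower direction in 1, a dim probe set of ZNF506. Over all 54613 probe sets the shares with groups apart were 11.3% and 10.1%. The share of all probe sets with a log2 change above 0 was not computed.

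Among all 53 probe sets, those of ZNF682 included, the median log2 change was 0.17 for the 28 ending in _at. It was 0.14 for the 19 ending in _x_at, 0.13 for the 2 ending in _a_at and 0.39 for the 4 ending in _s_at. Of those ending in _s_at, that of ZNF682 was at 0.68, that of ZNF93 at 0.56 and those of ZNF91 at 0.22 and 0.05. Over all probe sets, 5 of the 51 of genes other than ZNF682 were called higher, where 1.19% of all probe sets were. Of the 15 genes with several probe sets, 10 had every probe set above 0, ZNF682 among them, and 5 had both signs. The share over all genes was not computed. The probe sets of ZNF254, ZNF738 and ZNF682 spread by more than 0.5 in log2 change. Those of ZNF254 ranged from -0.13 to 0.51, so its direction depended on the probe set. Its brightest one read 6.40, 6.52 and 6.49 after SRPIN803 and 6.22, 6.34 and 6.15 after DMSO (0.23 ± 0.070, SE, adjusted p = 0.109 over all genes, limma). When only genes at or above the median level were tested, ZNF254 was called higher (adjusted p = 0.0482).

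**Figure D4:**
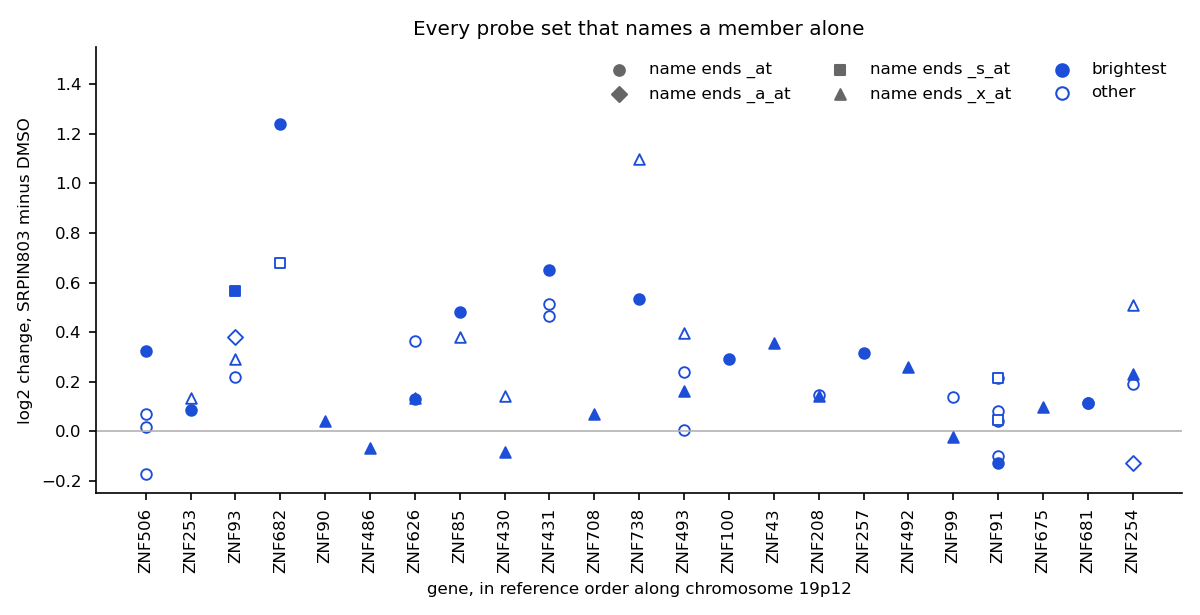
Log2 change (SRPIN803 minus DMSO) of all 53 probe sets that name a measured gene alone, by gene in reference order, with shapes for the name ending and filled symbols for the brightest probe set. Most points lie above 0, and ZNF682 and ZNF738 carry the highest ones.

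Along the chromosome, ZNF682 and the genes that passed the test were not one uninterrupted run. ZNF93 and ZNF682 are neighbours among the 33 genes, at the third and the fourth place from the 19p13 side. Between ZNF682 and ZNF85 lie the measured ZNF90, ZNF486 and ZNF626, with log2 changes of 0.04, -0.07 and 0.13. ZNF90 and ZNF486 lie below the median level, so their values say little about whether they changed. For ZNF626 the value depended on the probe set. Another one ending in _at, also above the median level, was at 0.36 ± 0.087 (SE) with the groups apart. It was not called over all probe sets (limma's adjusted p = 0.0834). The dim one ending in _x_at was at 0.13. ZNF430 and ZNF708, the nearest measured genes on either side of ZNF431, were at -0.08 and 0.07. The second probe set of ZNF430, also above the median level, was at 0.14, so its sign depended on the probe set. Every probe set of ZNF430 and ZNF708 ends in _x_at. Beyond ZNF43, at place 18, 0 of the 8 measured genes were called (limma; 2 higher and 0 lower at an unadjusted p under 0.05, where 11.8% and 7.7% of all genes were), and 5 of those 8 lie below the median level.

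Genes beside the block were described from a list of 26, of which 23 were measured. At an adjusted p under 0.05 (limma), 2 were higher (8.7%) and 0 lower, where 3.46% and 2.37% of all genes were. At an unadjusted p under 0.05, 4 were higher and 3 lower, where 11.8% and 7.7% of all genes were. Both that rose are zinc finger genes next to ZNF506. ZNF101 had values of 7.68, 7.73 and 7.67 after SRPIN803 and 6.89, 7.06 and 6.89 after DMSO, a log2 change of 0.74 ± 0.067 (SE, adjusted p = 0.00205). ZNF14 had values of 7.15, 7.22 and 7.20 after SRPIN803 and 6.88, 6.90 and 6.94 after DMSO, a log2 change of 0.28 ± 0.056 (adjusted p = 0.0293). ATP13A1, the next gene outward and an ATPase gene, was at -0.09 ± 0.088 (adjusted p = 0.680). The median of the list was 0.05.

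The corepressor pathway that KRAB zinc finger proteins use was described from a list of 37 genes, of which 34 were measured. Of these 0 rose and 2 fell (5.88%) in limma's test, where 3.46% of all genes rose and 2.37% fell. At an unadjusted p under 0.05, 4 were higher and 3 lower, where 11.8% and 7.7% of all genes were. The median log2 change was 0.03. The corepressor TRIM28 itself was at 8.94 ± 0.11 after SRPIN803 and 8.84 ± 0.14 after DMSO (log2, SD, n = 3 each), a log2 change of 0.10 with a 95% confidence interval of -0.12 to 0.31. SETDB1, its methyltransferase partner, was at 7.43 ± 0.095 after SRPIN803 and 7.44 ± 0.083 after DMSO. RESF1, a retroelement silencing factor, fell by 0.34 on the log2 scale (adjusted p = 0.0428). EHMT1, another H3 lysine 9 methyltransferase, fell by 0.24 on the log2 scale (adjusted p = 0.0462).

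Other zinc finger genes were set beside the block as a description. Of all genes, 3.46% rose and 2.37% fell. In the block without ZNF682 the share that rose was 22.7%, and the median log2 change was 0.15. Of 402 genes outside it whose symbol is ZNF and a number, 35 rose (8.71%) and 10 fell (2.49%), with a median of 0.05. Those 402 include the zinc finger genes of 19p13.2, a list with 30 measured genes, of which 7 rose and 1 fell, with a median of 0.18. Its largest log2 changes were 1.77 for ZNF844, 1.07 for ZNF44, 1.04 for ZNF709 and 1.01 for ZNF627. The difference between these groups of genes was not tested, and nothing is called particular to 19p12.

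**Figure D5:**
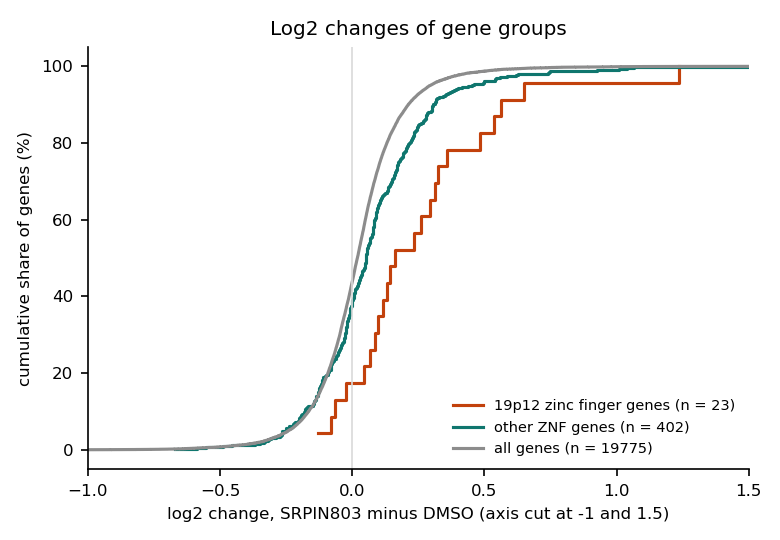
Cumulative share of genes (%) by log2 change (SRPIN803 minus DMSO) for the 23 genes of 19p12, the 402 other zinc finger genes and all 19775 genes. The 19p12 curve lies to the right, with medians of 0.16, 0.05 and 0.02 for the 3 groups.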

How the data were processed

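Gene expression was measured on 6 Affymetrix-type 3′ arrays. Per the submitters' processing notes, the authors used RMA, and the deposited values are 1 log2 value per probe set and array; the program behind it, with its version, is not given in the sources used here. They were used as deposited. Of 54675 probe sets, 62 were controls, 41091 named 1 gene, 1801 several, and 11721 are unnamed here. The model (lmFit and eBayes of limma 3.58.1, R 4.3.3) had the group as its only term. P-values were two-sided and adjusted by Benjamini and Hochberg across the 19775 genes, or across 54613 probe sets where stated, with a threshold of 0.05. The test was checked on simulated data.

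Members, lists and alternatives were chosen with earlier results of these data known. Named in full were ZNF682, every other called member, the 8 largest changes, the 4 brightest, members whose probe sets spread by more than 0.5, and from each list up to 4 called genes; TRIM28, SETDB1 and other members were named for their role or to complete the account. The number of arrays limits the precision. Same-numbered arrays deviated together with r = 0.18, -0.06 and 0.11 for replicates 1, 2 and 3, so the numbers were not taken as pairs. Promoter windows came from RefSeq (GRCh38.p14) and were aligned with Biopython 1.88. Plots used matplotlib 3.10.9.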

Additional observations from a re-analysis of the deposited data

How the results depend on the processing

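ZNF431 kept its direction and call under all 15 alternatives that could be run for it besides the main setting, and nothing in the 19p12 block was called lower under any. With 1 array left out, ZNF431 kept its call in 6 of 6 fits and ZNF738 in 5. ZNF93 kept it in 3, and ZNF85 and ZNF43 in 2 each. In these fits the genes called over the whole table numbered 324 to 687. The median log2 change of the members was 0.12 to 0.24. The members with groups apart numbered 12 to 14 higher and 0 to 2 lower. Groups are apart more easily when 1 array is missing. The shares of all genes with groups apart were not computed for any alternative in this paragraph, so nothing is read from such counts. The medians and the counts of groups apart in this paragraph include ZNF682, except at the 75th percentile. With the replicate number as a block, 689 genes were called, and ZNF43 lost its call while ZNF431, ZNF738, ZNF93 and ZNF85 kept theirs. Among genes at or above the median level the median of the members was 0.23, and 1904 genes were called. There ZNF431, ZNF738, ZNF93, ZNF85 and ZNF43 kept their calls, and ZNF254 was called higher as well (limma's adjusted p = 0.0482). At or above the 75th percentile, where 2 members are left, ZNF738 and ZNF91, ZNF738 was called higher and had its groups apart. With probe sets ending in _s_at or _x_at set aside, 16 members were left, with a median of 0.22. An eBayes fit with trend and robust options called 2036 genes. Centring on medians, quantile normalization and cyclic loess each left 1 member with its groups apart in the lower direction. The direction of ZNF91 turned without SRPIN803 replicate 2 (0.081; range with 1 array left out -0.26 to 0.081) and with the mean of all probe sets (0.054), and that of ZNF254 with _s_at and _x_at probe sets set aside (-0.13). The causes were not tested.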

Other observations

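Between the first and the last gene of the block, 13 other annotated genes or pseudogenes had a probe set of their own. None passed the test (limma, 0 higher and 0 lower), where 3.46% of all genes were higher and 2.37% lower. At an unadjusted p under 0.05, 2 were higher and 0 lower, where 11.8% and 7.7% of all genes were. Their median log2 change was 0.04. The zinc finger pseudogene ZNF826P had values of 6.71, 6.55 and 6.38 after SRPIN803 and 6.30, 6.02 and 5.97 after DMSO (log2 change 0.45 ± 0.11, SE, adjusted p = 0.0629), on a probe set ending in _x_at. The importin pseudogene IPO5P1 had values of 6.59, 6.88 and 6.69 after SRPIN803 and 6.51, 6.47 and 6.38 after DMSO (0.27 ± 0.085, adjusted p = 0.127). ZNF429, a zinc finger gene of the block outside the 33, was at -0.02 ± 0.062 (adjusted p = 0.906). These genes were chosen after their values were seen.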
